A study of Mus musculus with 12 samples.

Results

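Cell cycle and DNA replication genes were followed across sorted mouse regulatory and effector T cells labelled as lacking Blimp1 or having it. The set was a list of 44 genes, 21 of mitosis, 19 of S phase and 4 that control passage through G1, and each gene was read from the probe with the highest mean over the 12 arrays. Probes were assigned to 40 of them. Mki67, Ccnb1, Kif11 and Rrm2 were not analysed here. A probe was tested when it exceeded its array's median on at least 3 of the 12 arrays, and 35 members did so, 14 mitotic, 17 of S phase and 4 of G1 control, among 12119 genes tested in all. Ccnb2, Ccna2, Bub1, Cenpe and Prim1 did not pass, with values between 4.26 and 4.80 beside array medians of 4.66 to 4.68.

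Naive CD4+CD44low T cells of C57BL/6 mice aged 8 to 12 weeks, carrying a Foxp3-GFP reporter and either Blimp1-deficient (arrays labelled CKO) or Blimp1-sufficient (Ctrl), were mixed 1:1 and transferred into RAG1-/- hosts, which lack T and B cells of their own but keep myeloid and NK cells. After 6 to 8 weeks the progeny were sorted by CD4, allotype and reporter into Foxp3+ cells (labelled pTreg, here Treg) and Foxp3- cells (Teff), and spleen, mesenteric lymph node and large intestine cells were pooled. All cells were stimulated for 4 h with PMA and ionomycin before RNA was taken. The groups were CKO Treg, Ctrl Treg, CKO Teff and Ctrl Teff, with 3 arrays each, numbered 1 to 3 in the titles, and nothing in the labels names the Cre or the promoter behind the deletion, or says that replicates came from separate animals, so that p-values measure only the spread between these arrays.

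The values are log2 intensities of 1-colour Illumina arrays, and the number of arrays limits their precision. Foxp3 read 7.29 to 8.94 on Treg arrays and 4.42 to 4.85 on Teff arrays, and Cd3e read 10.76 to 12.22 on every array, while the Cd4 probe lay at 4.95 to 6.40. Prdm1, which encodes Blimp1, went against its label: it read 8.47 to 9.48 in CKO Treg, against 5.19 to 6.07 in Ctrl Treg, and at least 7.83 in CKO Teff, against 4.64 to 5.39 in Ctrl Teff. The sources used here do not place this probe relative to the deleted part, so it does not check the labels, and CKO and Ctrl mean the arrays labelled so throughout.

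A cell that leaves G1 passes through S phase, in which origins licensed by Cdc6, Cdt1 and the Mcm2 to Mcm7 helicase fire and DNA is copied with Pcna, Fen1 and Lig1, and then through mitosis, driven by Cdk1, Plk1 and the Aurora kinases. The genes of both phases are switched on at different times. E2F factors act on S phase genes at the G1 to S boundary, and the MuvB complex with B-Myb and FoxM1 acts on mitotic genes in G2, through the cell cycle genes homology region (CHR), while NF-Y binds CCAAT boxes in many of the same promoters. In dividing T cells the transcripts of both phases are abundant, and in resting T cells they are low. In bulk RNA, fewer dividing cells and less of a transcript per dividing cell cannot be told apart.

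Promoters of 37 of the 44 members were found in RefSeq (GRCm38.p6), as 250 bases before to 50 after each start. Both strands were searched for the CHR (TTTGAA or TTCGAA), the CCAAT box (CCAAT) and an E2F site (TTTCCCGC, TTTCGCGC, TTTGCCGC or TTTGGCGC). Of 18 mitotic promoters 14 held a CHR, 77.8%, against 19.2% of all 32851 promoters, and each of these 14 also held a CCAAT box, against 7.52% of all promoters with both. S phase members had 20 promoters, of which 3 held a CHR (15%) and 7 an E2F site (35%), against 1 of 18 mitotic promoters (5.56%) and 2.26% of all promoters with an E2F site. In 5 promoters of the G1 control genes neither the CHR nor the E2F letters occurred. Matches to different motifs overlapped in Mcm7 and Cdca8 and in no other member. These letters are a description of the windows and not a test of binding. Shown are the promoters of Plk1 (chr7:122159185-122159484, plus strand), Aurka (chr2:172370521-172370820, minus strand) and Cdc20 (chr4:118437294-118437593, minus strand), the mitotic members with the widest swings between arrays, and of Cdc6 (chr11:98907901-98908200, plus strand), an S phase member with an E2F site. Each reads 5′ to 3′ along its gene, with the searched motifs in capitals.
Plk1: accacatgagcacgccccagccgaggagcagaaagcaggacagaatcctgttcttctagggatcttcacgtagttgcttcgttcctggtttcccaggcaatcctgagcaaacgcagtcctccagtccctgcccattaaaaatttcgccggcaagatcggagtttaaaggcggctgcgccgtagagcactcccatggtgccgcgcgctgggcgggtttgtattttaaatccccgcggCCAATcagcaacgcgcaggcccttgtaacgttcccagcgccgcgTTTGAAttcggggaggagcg
Aurka: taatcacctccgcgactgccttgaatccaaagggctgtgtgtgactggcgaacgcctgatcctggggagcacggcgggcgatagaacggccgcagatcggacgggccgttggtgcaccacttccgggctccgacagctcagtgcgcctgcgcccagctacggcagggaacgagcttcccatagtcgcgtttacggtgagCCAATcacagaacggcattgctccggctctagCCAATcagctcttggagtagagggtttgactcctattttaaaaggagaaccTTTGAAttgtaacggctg
Cdc20: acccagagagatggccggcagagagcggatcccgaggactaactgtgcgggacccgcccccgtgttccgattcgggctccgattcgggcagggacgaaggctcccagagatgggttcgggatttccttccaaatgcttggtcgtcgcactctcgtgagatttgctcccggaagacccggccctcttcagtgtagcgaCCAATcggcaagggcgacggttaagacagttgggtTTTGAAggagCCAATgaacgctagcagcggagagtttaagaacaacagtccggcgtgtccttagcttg
Cdc6: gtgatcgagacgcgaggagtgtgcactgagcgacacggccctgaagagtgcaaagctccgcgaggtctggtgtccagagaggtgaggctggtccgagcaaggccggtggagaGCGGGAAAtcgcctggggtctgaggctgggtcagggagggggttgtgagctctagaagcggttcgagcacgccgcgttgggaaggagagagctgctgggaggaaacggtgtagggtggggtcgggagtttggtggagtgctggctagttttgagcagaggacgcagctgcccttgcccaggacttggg
In Plk1 the CCAAT box starts 14 bases before the start and TTTGAA 30 bases after it. Aurka has CCAAT boxes 51 and 19 bases before its start and TTTGAA 32 bases after it, and Cdc20 has TTTGAA 18 bases before its start between CCAAT boxes at 53 and 8. The capitals in Cdc6 are an E2F site read on the opposite strand.

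Most mitotic transcripts differed more by array number than by group. On the arrays numbered 3, 13 of 14 mitotic members were higher than on numbers 1 and 2 in 4 of 4 groups, as were 9 of 17 S phase members and 0 of 4 G1 control members. That made 22 of 35 members, against 9.29% of all genes, and 0 of 35 were highest in 4 of 4 groups on the arrays numbered 1, against 3.35% of all genes. For 19 members, 13 mitotic and 6 of S phase, each of the 4 arrays numbered 3 lay above each of the other 8, against 3.52% of all genes. These counts describe a pattern noticed in these arrays, and carry no test.

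**Figure D1:**
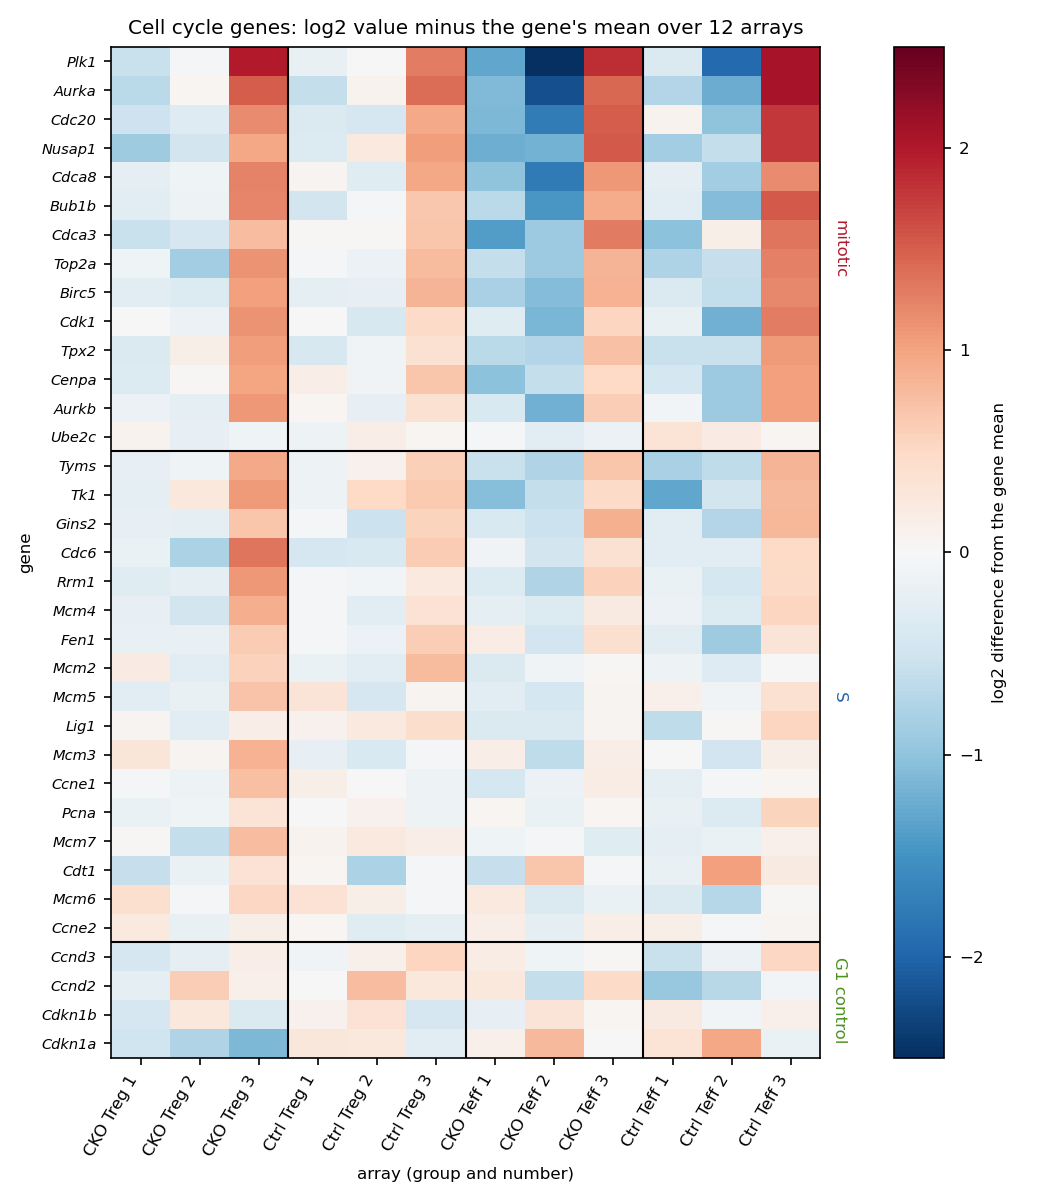
Heat map of the 35 tested members (rows, ordered within mitotic, S phase and G1 control) on 12 arrays (columns by group and number); colour is the log2 value minus the gene's mean over 12 arrays. Mitotic rows are red on the arrays numbered 3 of each group, except Ube2c, and G1 control rows show no such order in all 4 groups.

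Kinases and checkpoint proteins of mitosis carried the widest swings. Plk1, the polo-like kinase of mitotic entry and spindle assembly, read 9.98 in CKO Treg, 9.28 in Ctrl Treg, 9.85 in CKO Teff and 10.06 in Ctrl Teff on the arrays numbered 3. In the same order of groups it read 7.45, 7.82, 6.70 and 7.63 on numbers 1 and 7.95, 8.00, 5.23 and 6.06 on numbers 2. The number 3 arrays thus stood above all others, and the lowest values were those of both Teff arrays numbered 2. Averaged over the 4 groups, Plk1 was 2.69 higher (log2) on number 3 than on the mean of numbers 1 and 2, the first of 12119 genes by this difference. Aurka, the Aurora kinase of spindle poles, came second with 2.41. It read 8.69, 8.57, 8.61 and 9.23 on numbers 3, against 6.50, 6.57, 6.07 and 6.45 on numbers 1 and 7.22, 7.26, 4.97 and 5.93 on numbers 2. For Aurka too the groups overlapped, and the number 3 arrays lay above all others, while numbers 1 and 2 overlapped.

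The other members of this role moved alike. Birc5, the survivin subunit of the chromosomal passenger complex, had the smallest range of the role, with a lowest array of 6.92 and a highest of 9.21. It read 9.03, 8.86, 8.87 and 9.21 on numbers 3, against 7.75, 7.76, 7.21 and 7.65 on numbers 1 and 7.67, 7.81, 6.92 and 7.40 on numbers 2. The array number held 88.7% of its sum of squares over the 12 arrays and the group 7.27%. Cdca8 (borealin, of the same complex), Bub1b (the spindle checkpoint protein BubR1), Cdca3 (a trigger of mitotic entry) and Aurkb (Aurora B, the kinase of the passenger complex) had number 3 differences of 1.68, 1.64, 1.53 and 1.16. The median over the 7 members of the role was 1.64, beside 0.02 over all genes.

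Spindle, centromere and chromosome proteins followed. Nusap1, which bundles spindle microtubules, had the widest range of the 4 tested. It read 7.55, 7.62, 8.12 and 8.35 on numbers 3, against 5.69, 6.23, 5.36 and 5.72 on numbers 1 and 6.13, 6.82, 5.40 and 5.99 on numbers 2. Tpx2, the Aurka activator, had the narrowest, with 6.28, 5.62, 5.97 and 6.31 on numbers 3, against 4.88, 4.85, 4.56 and 4.68 on numbers 1 and 5.38, 5.15, 4.51 and 4.69 on numbers 2. Several of these lower Tpx2 values lay near the array medians. Top2a (topoisomerase II, which untangles chromosomes) and Cenpa (the centromeric histone H3) had differences of 1.50 and 1.20, and with Nusap1 (1.99) and Tpx2 (1.20) these 4 genes were higher on each number 3 array than on each other array.

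Among the cofactors of the anaphase promoting complex, Cdc20, its mitotic activator, read 9.55, 9.32, 9.90 and 10.14 on numbers 3, against 7.86, 8.01, 7.24 and 8.46 on numbers 1 and 8.05, 7.96, 6.62 and 7.37 on numbers 2. Ube2c, the ubiquitin-conjugating enzyme of the complex, was the exception among the tested mitotic members. Its number 3 difference was −0.06, but its values of 4.29 to 4.90 lay around the array medians on every array. Cdk1, the mitotic cyclin-dependent kinase, read 8.75, 8.11, 8.16 and 8.92 on numbers 3, against 7.64, 7.63, 7.33 and 7.44 on numbers 1 and 7.49, 7.23, 6.48 and 6.43 on numbers 2.

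**Figure D2:**
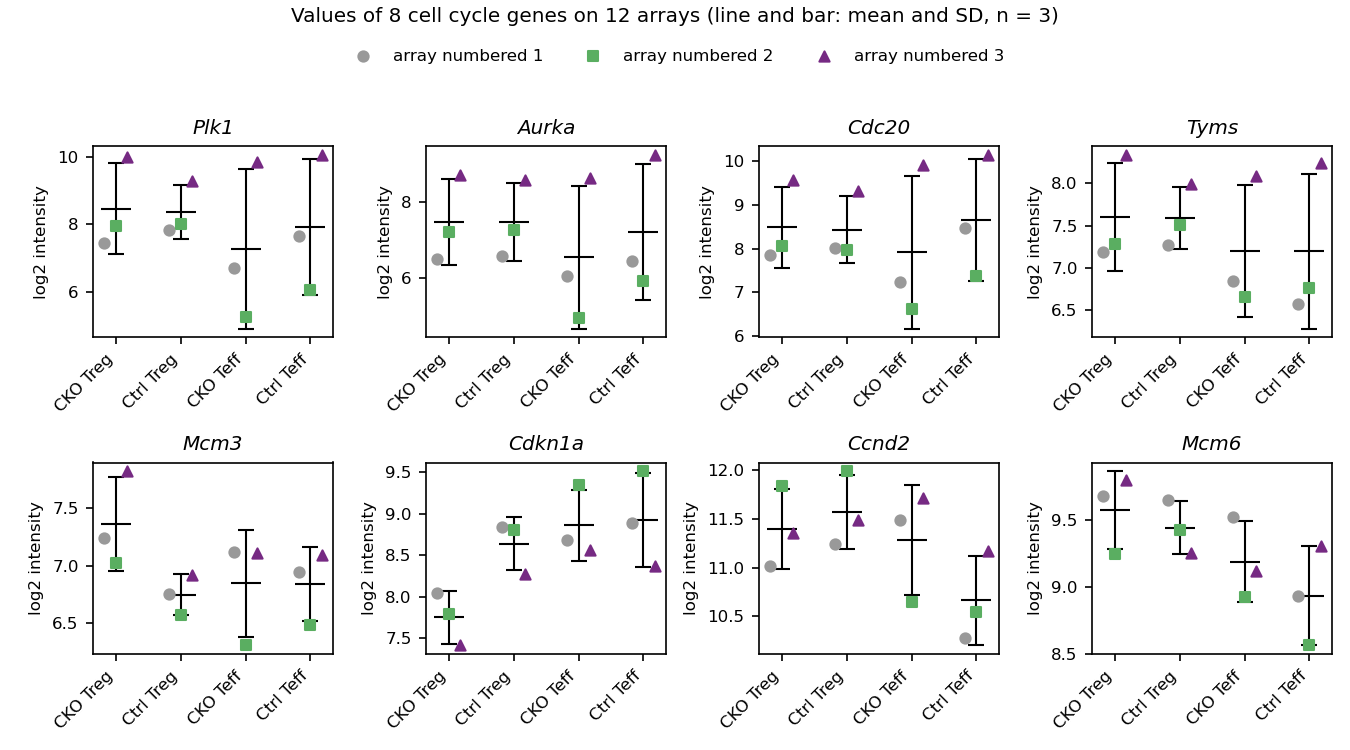
Log2 intensity of 8 members in the 4 groups; points are arrays, marked by number, and lines with bars are group means with SD (n = 3). For Plk1, Aurka, Cdc20 and Tyms the arrays numbered 3 lie above the rest, while Cdkn1a is lowest in the CKO Treg arrays and, within each group, on number 3.

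The S phase members were split. Of the 9 licensing and helicase genes, 4 were highest on number 3 in 4 of 4 groups. Cdc6, which loads the Mcm helicase, had the widest range of them, with 6.70, 6.00, 5.74 and 5.86 on numbers 3, against 5.20, 4.94, 5.28 and 5.07 on numbers 1 and 4.57, 4.99, 4.89 and 5.07 on numbers 2. Gins2, of the replicative helicase, had 93.2% of its sum of squares with the array number and a difference of 1.10. Mcm4 followed with 0.76 and Mcm2 with 0.53. Mcm2 had the narrowest range, and read 8.63, 8.84, 8.07 and 8.06 on numbers 3, against 8.25, 7.88, 7.69 and 7.91 on numbers 1 and 7.79, 7.76, 7.96 and 7.73 on numbers 2. The helicase subunits Mcm3, Mcm5, Mcm6 and Mcm7 and the licensing factor Cdt1 had differences of 0.43, 0.46, 0.13, 0.29 and 0.19, with number 3 highest in 1 to 3 groups.

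DNA synthesis and nucleotide supply came closer to the mitotic pattern, with 5 of 6 genes highest on number 3 in each group. Tk1, the thymidine salvage kinase, had the widest range and read 7.67, 7.25, 7.08 and 7.42 on numbers 3, against 6.38, 6.48, 5.53 and 5.30 on numbers 1 and 6.86, 7.09, 6.00 and 6.15 on numbers 2. Tyms, thymidylate synthase, was 1.15 higher on number 3, Rrm1, the large subunit of ribonucleotide reductase, 0.89, Fen1, the flap nuclease, 0.75, and Lig1, the ligase that joins Okazaki fragments, 0.46. Pcna, the sliding clamp, had the narrowest range and lay near the array medians. It read 5.27, 4.79, 4.96 and 5.47 on numbers 3, against 4.75, 4.91, 4.97 and 4.73 on numbers 1 and 4.82, 5.04, 4.76 and 4.58 on numbers 2. Of the cyclins that drive S phase entry, Ccne1 lay between 4.59 and 5.78 and Ccne2 between 4.47 and 5.02. Ccne2 stayed near the array medians, and Ccne1 was highest on the CKO Treg array numbered 3.

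Of the G1 control genes, 0 of 4 were highest on number 3 in 4 of 4 groups, although Ccnd3 was in 3 of them. Cdkn1a, the CDK inhibitor p21, was the 1 member lowest on number 3 in 4 of 4 groups, with a difference of −0.58, as were 5.53% of all genes. It read 7.42, 8.28, 8.56 and 8.37 on numbers 3, against 8.05, 8.84, 8.68 and 8.89 on numbers 1 and 7.79, 8.81, 9.35 and 9.51 on numbers 2. Cdkn1b, the inhibitor p27, had the narrowest range of the role. It read 4.80, 4.75, 5.21 and 5.30 on numbers 3, against 4.75, 5.27, 4.96 and 5.39 on numbers 1 and 5.42, 5.53, 5.48 and 5.09 on numbers 2. Its values lay close to the array medians, in no common order of number. Ccnd3 and Ccnd2, D cyclins that start the G1 to S transition, differed by 0.47 and 0.30.

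**Figure D3:**
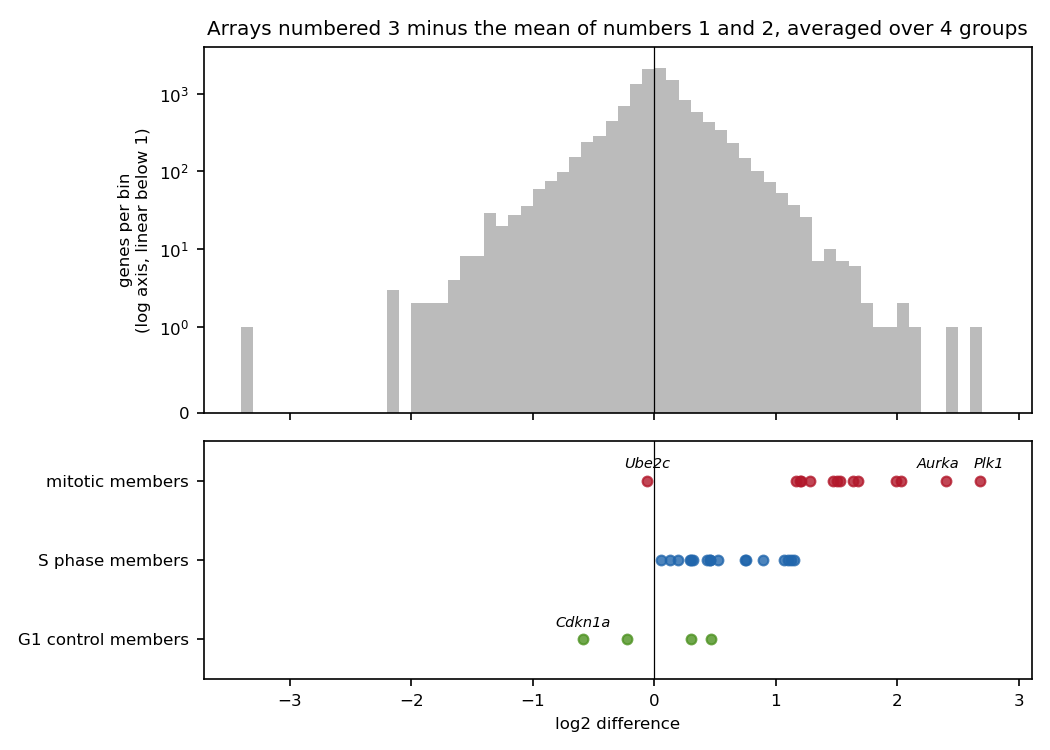
Upper panel: histogram of all 12119 genes by the log2 difference between the array numbered 3 and the mean of numbers 1 and 2, averaged over 4 groups (bins of 0.1, log axis that is linear below 1). Lower panel: each tested member, where mitotic members other than Ube2c lie at 1.16 to 2.69, S phase members at 0.06 to 1.15 and G1 control members at −0.58 to 0.47.

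The medians of this difference were 1.52 over mitotic, 0.46 over S phase and 0.04 over G1 control members. For the median mitotic member 78.4% of the sum of squares lay between array numbers and 8.34% between groups, against 25.2% and 26.7% for the median of all genes. The difference was 1.37 in CKO Treg and 0.90 in Ctrl Treg, and 1.90 in CKO Teff and 1.85 in Ctrl Teff, as medians over mitotic members. Other probes of the members were read as well. The 8 other probes of mitotic genes, in 5 genes, were highest on number 3 in 4 of 4 groups, with differences of 1.12 to 1.96, while 0 of 15 other probes of 8 S phase genes were, with differences of 0.01 to 0.56. Of these 15, 12 stayed at or below 6 on every array, as did 0 of the 8 mitotic probes. The brighter S phase probes were of Mcm6 and Gins2, and that of Gins2 was highest on number 3 in 3 groups. Because signal differed too, these probes cannot compare the phases.

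Genes of the same pathways outside the list, 127 of 169 tested, were also often higher on number 3. Of these, 64 of 127 (50.4%) were highest there in 4 of 4 groups, against 9.29% of all genes. Among 36 spindle, kinetochore and cytokinesis genes 26 were so, among 26 of licensing and the fork 16, among 23 of condensin, cohesin and mitotic entry and exit 10, among 18 of nucleotide supply and S phase chromatin 6, and among 25 of G1 to S control 6. Of the 127, 48 had the 4 arrays numbered 3 above the other 8, against 3.52% of all genes. The largest differences were those of Kif2c (2.09), a microtubule-depolymerising kinesin, Kif22 (1.86), a chromosome-arm kinesin, Cdkn3 (1.68), a phosphatase of CDKs, and Spag5 (1.68), the spindle protein astrin. Kif2c read 8.03, 7.57, 8.22 and 8.28 on numbers 3, against 6.37, 6.58, 5.38 and 6.02 on numbers 1 and 6.40, 6.65, 4.83 and 5.28 on numbers 2.

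Other transcripts also differed by array number. Eif2s3y, a gene of the Y chromosome, ranked 3 of all genes by the number 3 difference (2.14), and Xist, the RNA of the inactive X chromosome, was last (−3.35). Eif2s3y read 7.71 to 8.09 on numbers 3, 5.87 to 7.61 on numbers 1 and 4.32 to 4.61 on numbers 2. Xist read 4.36 to 4.49 on numbers 3 and 8.42 to 9.03 on numbers 2, and on numbers 1 it read 6.93 in CKO Treg, 8.40 in Ctrl Treg, 7.34 in CKO Teff and 4.49 in Ctrl Teff. The Ctrl Teff array numbered 1 thus had Xist and Eif2s3y (7.61) close to the number 3 arrays, but Plk1 at 7.63, below each of them. The part of these differences in the cell cycle values was not tested.

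Markers of other cell types differed between arrays as well. The cells had been sorted by CD4 and allotype, but whether host cells remained was not tested. Of the neutrophil markers, S100a8 read 10.09 to 14.54 and S100a9 8.83 to 13.68 across the arrays, whereas Cxcr2 read 4.52 to 5.05. T cells can also express killer receptor genes of the CD8 and NK list. The source of these signals was not tested. The mean of 7 neutrophil markers, among them S100a8, S100a9 and Ngp, was 9.55 in CKO Treg, 9.98 in Ctrl Treg, 8.25 in CKO Teff and 7.06 in Ctrl Teff on numbers 3, against 9.27, 10.2, 9.99 and 9.32 on numbers 1 and 6.53, 6.83, 10.7 and 11.4 on numbers 2. Both Teff arrays numbered 2, the lowest for Plk1, were the highest for these markers, but both Treg arrays numbered 2 were the lowest for them. The mean of 10 tested myeloid and dendritic markers was 7.84, 7.72, 7.53 and 5.97 on numbers 3, against 7.78, 8.41, 8.61 and 6.94 on numbers 1 and 7.25, 6.64, 9.48 and 8.94 on numbers 2. CD8 and NK cell markers, 6 of 9 tested, averaged 7.58, 8.60 and 6.47 in CKO Teff and 5.45 to 6.46 in the other groups. Cd8b1, the 1 CD8 marker among the 6, read 9.31, 8.45 and 9.90 in CKO Teff, against 9.52, 8.80 and 9.87 in Ctrl Teff. In Treg it read 9.12, 9.31 and 9.88 in CKO, against 9.38, 9.68 and 10.02 in Ctrl. Like most mitotic members, Cd8b1 was thus higher on each array numbered 3 than on each other array. No other tested gene of this list had that order. The part of these cells in the cell cycle values was not tested.

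**Figure D4:**
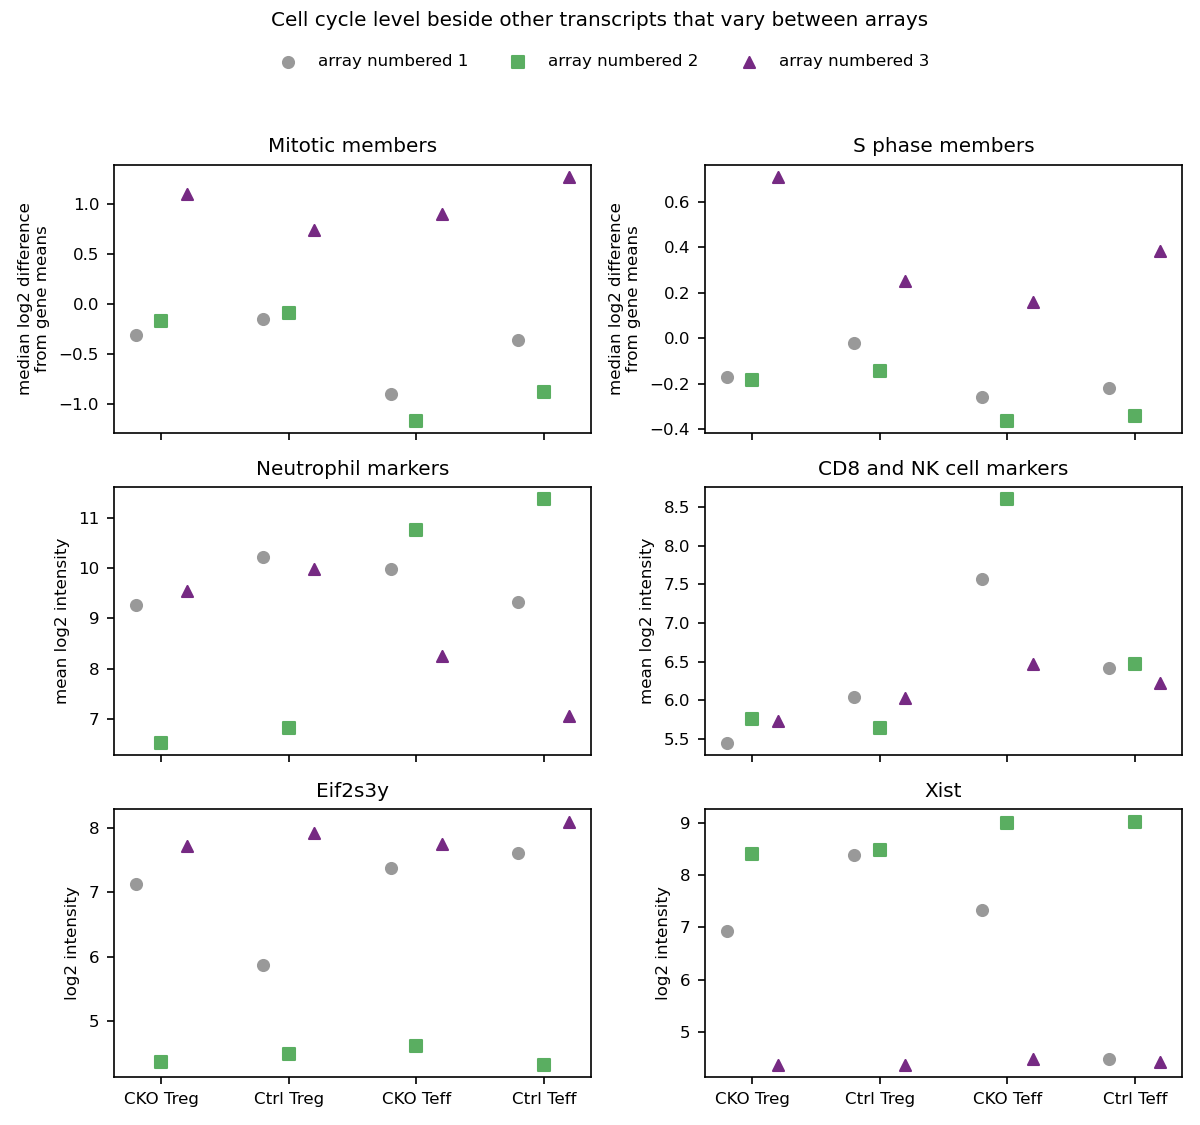
Panels by group and array number: the median of mitotic and of S phase members (log2 difference from gene means), the mean of neutrophil and of CD8 and NK cell markers, and Eif2s3y and Xist (log2 intensity). Arrays numbered 3 are highest for mitotic and S phase members in each group, whereas neutrophil markers are low on number 2 in Treg and high on it in Teff.

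In CKO Treg against Ctrl Treg 0 of 35 members passed an adjusted p under 0.05 (limma, Benjamini-Hochberg over all genes), against 0.099% of all genes, and 2 had an unadjusted p under 0.05, against 5.33% of all genes. The median log2 difference over members was 0.05. Same-numbered CKO and Ctrl arrays deviated together, so the fit with pairs is given too. Arrays numbered 1 were less alike within pairs in sex-linked transcripts, though. Xist read 6.93 in CKO and 8.40 in Ctrl Treg 1, and 7.34 in CKO and 4.49 in Ctrl Teff 1. Eif2s3y read 7.13 in CKO and 5.87 in Ctrl Treg 1, but 7.38 in CKO and 7.61 in Ctrl Teff 1. The part of this in the paired differences was not tested. With pairs 1 member passed, on the lower side, against 2.18% of all genes in either direction and 1.3% on that side.

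That member was Cdkn1a, the inhibitor that holds CDK2 and cyclin E in check (chromosome 17, 29090979 to 29100722, GRCm38.p6). It read 8.05, 7.79 and 7.42 in CKO Treg, against 8.84, 8.81 and 8.28 in Ctrl Treg, with means of 7.75 ± 0.31 and 8.64 ± 0.32 (SD, n = 3 each). The 3 CKO values lay below the 3 Ctrl values, and the pairs differed by −0.79, −1.01 and −0.85. Cdkn1a fell by 0.89 ± 0.12 (SE) with pairs (limma, adjusted p = 0.0122), but without pairs the SE was 0.31 and the adjusted p 0.672. With pairs, the call was lost when any pair was left out (adjusted p 0.0744 without pair 1, 0.0745 without pair 2 and 0.0828 without pair 3), and a second probe gave −0.56 (adjusted p = 0.114). The mean of the neutrophil markers was lower in CKO Treg in each pair as well, at 9.27, 6.53 and 9.55, against 10.2, 6.83 and 9.98 in Ctrl Treg. So was the T cell lineage marker mean, at 10.18, 10.20 and 10.04 in CKO Treg, against 10.74, 10.22 and 10.50 in Ctrl Treg. The mean of 7 Treg markers was lower in each pair too, at 8.26, 8.29 and 8.26, against 9.54, 9.59 and 9.11. Foxp3, which is among these 7, had no common direction. The part of these markers in the Cdkn1a values was not tested.

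Mcm3, a helicase subunit, came next, at 7.24, 7.03 and 7.82 in CKO Treg, against 6.75, 6.57 and 6.92 in Ctrl Treg. The CKO values lay above the Ctrl values, with a difference of 0.61 ± 0.27 (limma, adjusted p = 0.908) that did not pass with pairs either (adjusted p = 0.0533). Ccne2 read 5.02, 4.58 and 4.92 in CKO Treg, against 4.82, 4.47 and 4.53 in Ctrl Treg, a difference of 0.23 ± 0.16. Ccnd3 read 8.23, 8.42 and 8.81 in CKO Treg, against 8.56, 8.78 and 9.19 in Ctrl Treg, a difference of −0.36 ± 0.27. Its groups overlapped, yet each CKO array was below its Ctrl partner. Of the 4 G1 control genes 3 (Ccnd2, Ccnd3 and Cdkn1a) were lower in 3 of 3 pairs. For Ccnd2 this depended on the probe, as a second probe gave a mean difference of 0.17. Over all members 5 were lower and 4 higher in 3 of 3 pairs, against 18.2% and 17.5% of all genes.

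Mitotic members had no common direction in Treg. Their median pair differences were −0.11, −0.05 and 0.29 in pairs 1, 2 and 3, and those of S phase members were −0.10, −0.17 and 0.47, so pair 3 alone was positive for both. Plk1 averaged 8.46 ± 1.34 in CKO Treg and 8.37 ± 0.80 in Ctrl Treg (SD, n = 3 each). Its difference of 0.09 had a 95% interval of −2.65 to 2.83 without pairs and of −0.39 to 0.57 with pairs. Of the pathway genes 0 of 127 passed, with or without pairs, and 6 had an unadjusted p under 0.05 without pairs (5.33% of all genes did) and 21 with them (14.1% of all genes). The 3 with the smallest p were Nasp (0.43 ± 0.12, adjusted p = 0.471), a histone chaperone, Rb1 (−0.68 ± 0.21, 0.492), which restrains E2F, and Cdkn2b (−0.995 ± 0.36, 0.696), an inhibitor of CDK4 and CDK6. With pairs they were Rb1 (0.0633), E2f5 (0.60 ± 0.14, 0.0694), a repressive E2F, and Cdkn2b (0.0810).

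In Teff 0 of 35 members passed between CKO and Ctrl, without pairs (0.0165% of all genes did) or with pairs (0.099%). The fitted difference was negative for 14 of 14 mitotic members, with a median of −0.41, for 11 of 17 S phase members, with a median of −0.04, and for 6757 of 12119 genes, with a median of −0.02. Each CKO array was below its same-numbered Ctrl array for 11 of 14 mitotic and 13 of 35 members, against 17.7% of all genes. Mitotic members varied together between arrays, so these counts are not of independent results, and they carry no test. Without pairs 1 member had an unadjusted p under 0.05, against 4.17% of all genes, and with pairs 11 did, against 10.4%.

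Cdc20 had the most negative difference of the members. It read 7.24, 6.62 and 9.90 in CKO Teff, against 8.46, 7.37 and 10.14 in Ctrl Teff, and the groups overlapped although the pairs differed by −1.22, −0.76 and −0.24. The difference was −0.74 ± 0.91 without pairs (limma, adjusted p = 1.00) and −0.74 ± 0.18 with them (adjusted p = 0.153). Without pairs it came to −1.73 when CKO Teff array 3 was left out and to −0.000336 when Ctrl Teff array 3 was. Aurka read 6.07, 4.97 and 8.61 in CKO Teff, against 6.45, 5.93 and 9.23 in Ctrl Teff. Its pairs differed by −0.38, −0.97 and −0.62, and its difference of −0.65 ± 0.13 with pairs had the smallest p among members (adjusted p = 0.112). Plk1 differed by −0.66 ± 0.21 with pairs (adjusted p = 0.305), Birc5 by −0.42 ± 0.11 (0.211) and Bub1b by −0.46 ± 0.14 (0.263). The medians over mitotic members were −0.38, −0.47 and −0.33 in pairs 1, 2 and 3.

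By the unpaired test the smallest p belonged to other members. Ube2c read 4.54, 4.29 and 4.42 in CKO Teff, against 4.90, 4.76 and 4.61 in Ctrl Teff, a difference of −0.34 ± 0.13 near the array medians (limma, adjusted p = 1.00). Ccnd2 read 11.49, 10.64 and 11.72 in CKO Teff, against 10.28, 10.54 and 11.17 in Ctrl Teff, a difference of 0.62 ± 0.34 between overlapping groups. Mcm5 read 9.93, 9.74 and 10.26 in CKO Teff, against 10.32, 10.09 and 10.57 in Ctrl Teff, and Mcm6 9.52, 8.93 and 9.12 in CKO Teff, against 8.93, 8.56 and 9.31 in Ctrl Teff. Their differences were −0.35 ± 0.28 and 0.25 ± 0.23. Neutrophil markers were lower in CKO than in Ctrl Teff on number 2 (10.7 and 11.4) and higher on numbers 1 (9.99 and 9.32) and 3 (8.25 and 7.06), with no common direction. The myeloid and dendritic marker mean was higher in CKO Teff in 3 of 3 pairs, at 8.61, 9.48 and 7.53, against 6.94, 8.94 and 5.97 in Ctrl Teff. The T cell lineage marker mean was lower in 3 of 3 pairs, at 9.87, 9.70 and 9.98 in CKO Teff, against 10.26, 10.29 and 10.34 in Ctrl Teff. Of the CD8 and NK cell list, the killer receptor genes Klrd1, Klre1 and Klra7 were higher in CKO in 3 of 3 pairs, whereas Cd8b1, Klrb1c and Eomes had no common direction. The part of these differences in the mitotic values was not tested.

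**Figure D5:**
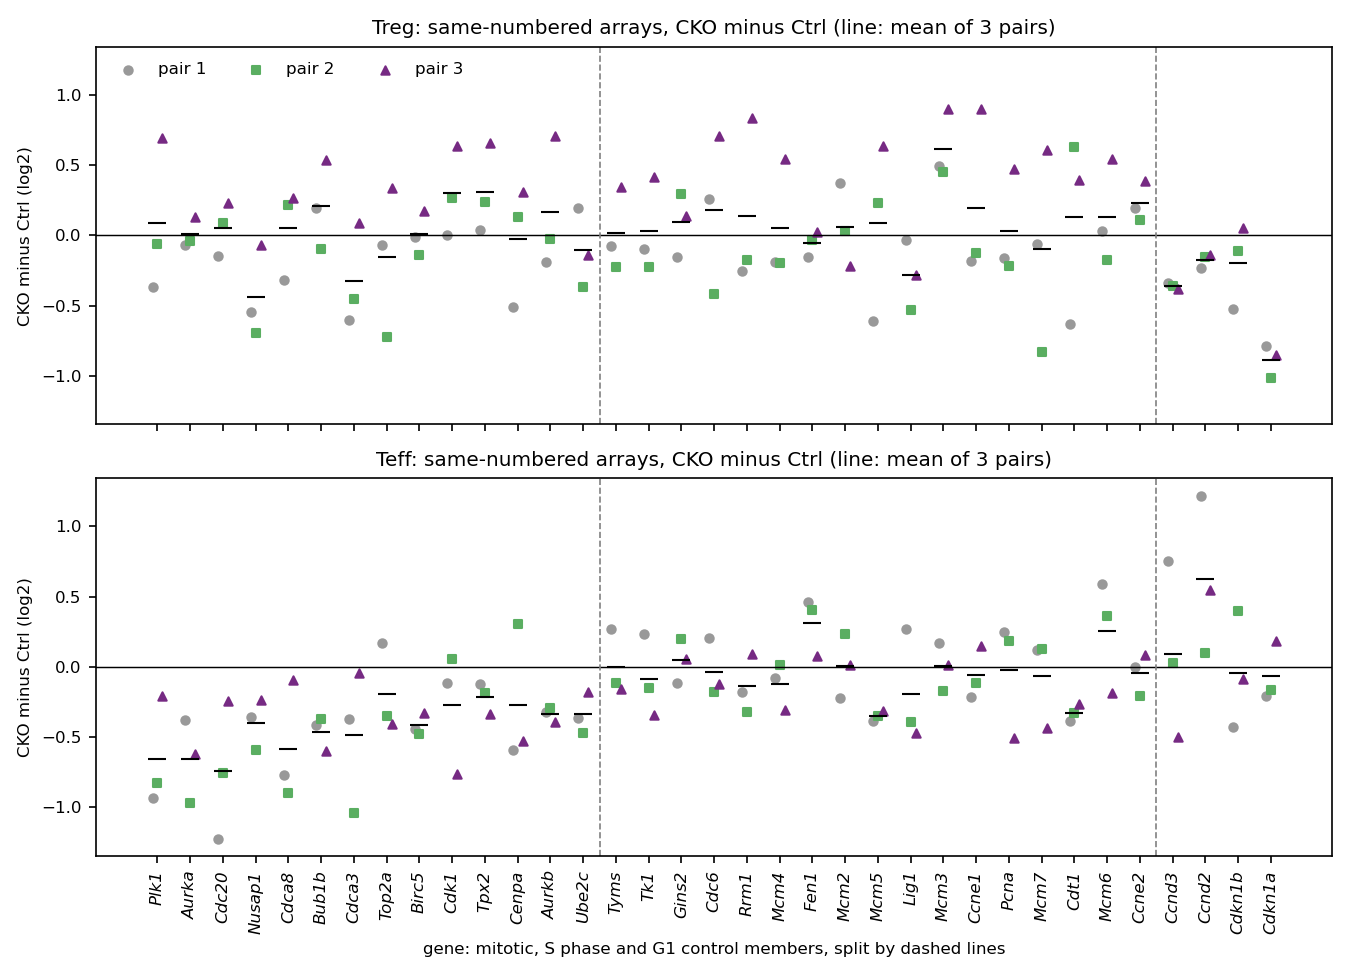
CKO minus Ctrl (log2) for each same-numbered pair of arrays and each tested member, in Treg (upper) and Teff (lower); lines are means of 3 pairs. In Teff 11 of 14 mitotic members have 3 points below 0, and in Treg Cdkn1a has 3 points between −0.79 and −1.01.

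Among all 127 pathway genes 41 were lower in CKO in 3 of 3 Teff pairs, against 17.7% of all genes. These were 18 of 36 spindle, kinetochore and cytokinesis genes and 7 of 26 of licensing and the fork. Of condensin, cohesin and mitotic entry and exit 6 of 23 were so, of nucleotide supply and S phase chromatin 6 of 18, and of G1 to S control 4 of 25. These counts carry no test either. Of the 127, 0 passed (limma), with 2 at an unadjusted p under 0.05 without pairs (4.17% of all genes) and 20 with them (10.4%). The smallest p without pairs were those of Wdhd1 (−0.59 ± 0.18, adjusted p = 0.983), a fork protein, Cdkn1c (0.62 ± 0.21, 1.00), the inhibitor p57, and Rad51ap1 (−0.43 ± 0.22, 1.00), a recombination cofactor. With pairs they were Cdkn1c (0.127), Wdhd1 (0.144) and Dlgap5 (−0.64 ± 0.17, 0.211), a spindle protein.

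Treg and Teff were compared within each genotype. In Ctrl 0 of 35 members passed (limma), against 1.01% of all genes, and 2 had an unadjusted p under 0.05, against 10.4%. The median over members was 0.08. Ccnd2, the D cyclin, read 11.24, 11.99 and 11.49 in Ctrl Treg, against 10.28, 10.54 and 11.17 in Ctrl Teff. Its Treg values lay above its Teff values, with a difference of 0.91 ± 0.34 (adjusted p = 0.340). Mcm6 read 9.65, 9.43 and 9.26 in Ctrl Treg, against 8.93, 8.56 and 9.31 in Ctrl Teff, a difference of 0.51 ± 0.23 (adjusted p = 0.474). Cdt1 (8.44, 7.59 and 8.35 in Ctrl Treg, against 8.20, 9.41 and 8.61 in Ctrl Teff) differed by −0.61 ± 0.40, and Ccne2 (4.82, 4.47 and 4.53 in Ctrl Treg, against 4.92, 4.73 and 4.84 in Ctrl Teff) by −0.23 ± 0.16. Plk1 averaged 8.37 ± 0.80 in Ctrl Treg and 7.92 ± 2.01 in Ctrl Teff (SD, n = 3 each), and its difference of 0.45 had a 95% interval of −2.29 to 3.19.

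Nasp, a histone chaperone of S phase, was the 1 pathway gene of 127 past the threshold here, against 1.01% of all genes. It read 8.03, 7.85 and 7.98 in Ctrl Treg, against 8.49, 8.74 and 8.59 in Ctrl Teff, without overlap. Nasp fell by 0.65 ± 0.12 in Treg relative to Teff (limma, adjusted p = 0.0353). It is 1 of 18 tested genes of nucleotide supply and S phase chromatin, in which no other gene passed.

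In CKO 0 of 35 members passed between Treg and Teff (limma), against 0.355% of all genes, and 1 had an unadjusted p under 0.05, against 10.8%. The fitted difference was positive for 14 of 14 mitotic and 16 of 17 S phase members, and for 6747 of 12119 genes. Its median was 0.56 over mitotic members and 0.03 over all genes. These counts and medians carry no test. Cdkn1a had the smallest p and the opposite sign, at 8.05, 7.79 and 7.42 in CKO Treg, against 8.68, 9.35 and 8.56 in CKO Teff, a difference of −1.11 ± 0.31 without overlap (adjusted p = 0.178). Of the CD8 and NK cell list, Klrd1, Klre1 and Klra7 were lower on each CKO Treg array than on each CKO Teff array too. For Cd8b1, Klrb1c and Eomes, of the same list, these groups overlapped. The part of these genes was not tested. Mcm3 read 7.24, 7.03 and 7.82 in CKO Treg, against 7.12, 6.31 and 7.11 in CKO Teff (0.52 ± 0.27), and Mcm6 9.68, 9.25 and 9.80 in CKO Treg, against 9.52, 8.93 and 9.12 in CKO Teff (0.39 ± 0.23). Ccne1 read 4.98, 4.90 and 5.78 in CKO Treg, against 4.59, 4.87 and 5.21 in CKO Teff (0.33 ± 0.23). Plk1 averaged 8.46 ± 1.34 in CKO Treg and 7.26 ± 2.36 in CKO Teff (SD, n = 3 each), and its difference of 1.20 had a 95% interval of −1.55 to 3.94. Of 127 pathway genes 0 passed and 3 had an unadjusted p under 0.05, Cdca7 (1.28 ± 0.28, adjusted p = 0.0871), a Myc and E2F target, Btg1 (−1.03 ± 0.45, 0.437), an antiproliferative factor, and Pttg1 (−0.34 ± 0.15, 0.461), securin.

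Whether the genotype difference itself differed between Treg and Teff was tested as an interaction. It passed for 0 of 35 members (limma), against 0.0165% of all genes without pairs and 0.0413% with pairs, and 0 members had an unadjusted p under 0.05 without pairs and 10 with pairs, against 3.48% and 11.4% of all genes. The median over members was 0.22 (Treg minus Teff), and over mitotic members 0.51. Cdkn1a (−0.82 ± 0.44) and Ccnd2 (−0.80 ± 0.48), Mcm3 (0.61 ± 0.38) and Ube2c (0.24 ± 0.18) had the smallest p, each with an adjusted p of 1.00. With pairs Cdkn1a came to an adjusted p of 0.154, Aurka (0.66 ± 0.19) to 0.236 and Bub1b (0.67 ± 0.20) to 0.239. Thus the fall of Cdkn1a in Treg, −0.89, was not shown to differ from its −0.06 in Teff. Of 127 pathway genes 0 passed, with 4 at an unadjusted p under 0.05 without pairs (3.48% of all genes) and 21 with them (11.4%). Nasp (0.59 ± 0.18), Wdhd1 (0.74 ± 0.25) and Top1 (1.07 ± 0.47), the topoisomerase that relaxes DNA ahead of the fork, had the smallest p without pairs, and Cdca2 (0.89 ± 0.21), Wdhd1 and Ube2s (0.65 ± 0.20) with them.

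The arrays numbered 3 were then left out, an alternative chosen after seeing the data. The count of members past the threshold was again 0 in each of the 5 comparisons. The medians over members became −0.15 for CKO against Ctrl in Treg, −0.10 in Teff, 0.37 for Treg against Teff in Ctrl, 0.27 in CKO and 0.03 for the interaction, and Plk1 in Treg changed sign to −0.21.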

How the data were processed

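Per the labels, RNA was extracted with RNeasy, amplified to biotin-labelled cRNA and hybridised to 12 Illumina mouse arrays. The deposited table holds the authors' log2 values of 31641 probes. GenomeStudio and limma 3.30.11 are named in the submitters' processing notes, while the sources used here do not state the background correction, normalization or probe filter. Array medians lay between 4.66 and 4.68.

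The values were used as deposited, with platform gene symbols (28197 probes had 1 symbol, 5 several and 3439 none). limma 3.58.1 in R 4.3.3 (lmFit, eBayes) was fitted to all 12 arrays with 1 mean per group, two-sided, with Benjamini-Hochberg adjustment over 12119 genes. The fit had 10.5 total degrees of freedom, of which 2.51 were prior. "With pairs" means that the array number within a cell type was a fixed term. This pairing came from the titles and the data: residuals of same-numbered CKO and Ctrl arrays correlated at 0.545, 0.519 and 0.589 in Treg and at 0.348, 0.733 and 0.737 in Teff. The fitting code was tested on simulated data.

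Values per array are given for members past the threshold, the widest and narrowest range in each role, and up to 4 members with the smallest unadjusted p per comparison. Pathway genes are named when past the threshold, and otherwise as the 3 with the smallest p. Genes given for their difference by array number were chosen after that difference was seen. The members and lists were chosen with earlier results of these data known. Alternatives in normalization, filter, probe choice, weights, blocks and arrays were run.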

Additional observations from a re-analysis of the deposited data

Results flagged for a closer look

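For Tpx2, the Aurka activator, and Ccnd2, the D cyclin, CKO minus Ctrl had one sign in 3 of 3 Treg pairs and the other in 3 of 3 Teff pairs, as did 581 of 12119 genes (4.79%). Tpx2 differed by 0.04, 0.23 and 0.66 in the Treg pairs and by −0.12, −0.18 and −0.34 in the Teff pairs. The mean Treg difference less the mean Teff difference was 0.52 (limma, adjusted p = 1.00 without pairs and 0.343 with pairs). Ccnd2 differed by −0.23, −0.16 and −0.14 in the Treg pairs and by 1.22, 0.10 and 0.55 in the Teff pairs, and the difference between them was −0.80 (adjusted p = 1.00 without pairs and 0.283 with pairs). A second Ccnd2 probe gave 0.17 in Treg, the opposite sign, and 0.67 in Teff. For neither gene was the difference between Treg and Teff past the threshold.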

How the results depend on the processing

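With the replicate block within cell type, 1 member (Cdkn1a, adjusted p = 0.0122) passed between CKO and Ctrl in Treg, with 264 of all genes against 12 without it. With the replicate block over all arrays, 1 member (Cdkn1a, adjusted p = 0.0275) passed between Treg and Teff in CKO, with 250 of all genes against 43. Same-numbered Treg and Teff arrays share only a number (residual correlations of −0.266 to 0.325), and a block within genotype gave 0 members in both genotypes. In the other alternatives run the count of members past the threshold was 0 in each comparison, and it was 0 without each array in turn. Without each array in turn the median over members ranged between −0.32 and 0.25 for the Treg genotype comparison, −0.40 and 0.17 for that in Teff, −0.16 and 0.55 for Treg against Teff among Ctrl arrays, 0.04 and 0.55 among CKO arrays, and −0.14 and 0.49 for the interaction. Plk1 between CKO and Ctrl Treg ranged between −0.67 and 0.59, negative without CKO Treg array 3 (−0.67), without Ctrl Treg array 1 (−0.19), without Ctrl Treg array 2 (−0.09), and when the arrays numbered 3 were left out (−0.21). Between CKO and Ctrl Teff, Cdc20 ranged between −1.73 and −0.000336 without each array in turn, Plk1 between −1.95 and 0.41 (0.36 without CKO Teff 2, 0.41 without Ctrl Teff 3), Aurka between −1.69 and 0.36 (0.14 without CKO Teff 2, 0.36 without Ctrl Teff 3) and Birc5 between −1.02 and 0.15 (0.15 without Ctrl Teff 3). The cause was not tested. The count of mitotic members highest on number 3 in 4 of 4 groups was 13 under each of 5 alternatives of normalization, filter and probe, and that of S phase members 8 to 10. Members near the array medians, such as Ube2c, Pcna, Ccne2 and Cdkn1b, are limited by signal over background.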
